A study of Mus musculus with 6 samples.

Results

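Mitosis genes are the cyclins, kinases and structural proteins that a cell needs to condense its chromosomes, build a spindle, hold and then separate the sister chromatids, and divide its cytoplasm. They were examined here in cultures labelled as myoepithelial cells of the lacrimal gland, a contractile basal cell type that wraps the acini, and the markers of that type are given further down. The list names 38 genes, chosen for their role in G2 and mitosis, with earlier results of these data known. Each was matched to the probe sets that carry its symbol and no other. For 37 of the 38 genes exactly 1 probe set was found, among the 22180 genes tested. The exception is Ccnb1, the cyclin B1 gene, with which the annotation used here pairs no probe set, so it was not analysed here.

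The 6 arrays hold total RNA from cells of the exorbital gland of female mice, taken into culture with collagenase and grown in medium with serum for about 2 to 3 weeks without treatment. In the TSP1 null group (3 arrays) the mice are null for thrombospondin-1, the matrix protein that Thbs1 encodes, and the wild-type group (3 arrays) is C57BL/6J. The series treats the null strain as a model of dry eye disease, and the comparison asks how the cultured cells differ between it and healthy mice. Neither the age of the mice nor the background strain of the null is stated. The sample titles number the arrays as biological replicates but name no animal or culture for any of them, and p-values here cover the spread among these 6 arrays.

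As background, the transcripts of these genes rise and fall with the cell cycle. In resting cells and in G1 the DREAM complex, which holds the MuvB core, keeps many of them off, and in G2 the same core acts with B-Myb and Foxm1 to switch them on. MuvB binds a short promoter element known as the cell cycle genes homology region (CHR, with the letters TTTGAA), often downstream of CCAAT boxes bound by NF-Y. Their summed level in a culture is widely used as a sign of how many of its cells are dividing. In bulk RNA, fewer dividing cells and less RNA per dividing cell cannot be told apart.

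The promoters of these genes were searched for those letters. Whether the letters bear on the signals described below was not tested. RefSeq promoter windows (GRCm38.p6, from 250 bases before to 50 after the annotated start) were found for 31 of the 37 measured genes, 34 windows in all. TTTGAA, or TTCAAA as it reads on the other strand, was present in 26 of the 34 windows (76.5%), against 17.9% of all 32851 windows of the same length. CCAAT or its complement ATTGG was present in 26 windows (76.5%) against 37.4%, at least 2 such matches in 19 windows (55.9%) against 11.7%, and both motifs in 23 windows (67.6%) against 6.95%. Both strands were counted, and in these windows 1 CHR match shared a base with a CCAAT match. The CHR letters were present in 55% of 60 windows of other G2 and mitosis genes, in 33.3% of 24 windows of G1 cyclins and E2F and MuvB regulators, in 25% of 16 windows of macrophage markers and in 9.09% of 33 windows of S phase genes. CCAAT was present in 68.3%, 45.8%, 37.5% and 66.7% of these windows, in the same order. A match describes letters only and is not evidence of a bound site.

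The following 6 stretches lie upstream of the annotated start and show where the letters stand in genes described below. They were taken from genes with a CHR match, which Cenpe and Bub1 lack, and in Ccnb2 that match lies upstream of the CCAAT matches. Capitals mark every match to either motif on either strand, each stretch is read 5′ to 3′ on the strand of its gene, and it ends at the base before the start except for Mki67.
Cdk1 (chr10:69352913-69353032, minus strand): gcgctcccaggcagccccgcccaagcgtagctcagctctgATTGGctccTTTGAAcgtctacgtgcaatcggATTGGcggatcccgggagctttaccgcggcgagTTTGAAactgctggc
Ccnb2 (chr9:70421555-70421734, minus strand): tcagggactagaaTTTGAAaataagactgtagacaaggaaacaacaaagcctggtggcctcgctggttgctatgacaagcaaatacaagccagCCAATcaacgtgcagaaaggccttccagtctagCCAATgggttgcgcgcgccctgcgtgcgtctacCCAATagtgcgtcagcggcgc
Kif11 (chr19:37376262-37376381, plus strand): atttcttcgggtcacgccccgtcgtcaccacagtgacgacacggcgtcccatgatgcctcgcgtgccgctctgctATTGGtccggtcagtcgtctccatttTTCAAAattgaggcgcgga
Ube2c (chr2:164769809-164769928, plus strand): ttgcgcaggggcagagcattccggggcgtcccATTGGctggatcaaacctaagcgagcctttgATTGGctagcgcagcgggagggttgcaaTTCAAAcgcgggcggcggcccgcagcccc
Cdc20 (chr4:118437344-118437463, minus strand): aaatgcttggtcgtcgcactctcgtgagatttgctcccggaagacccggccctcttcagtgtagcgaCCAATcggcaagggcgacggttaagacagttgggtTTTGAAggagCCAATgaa
Mki67 (chr7:135716460-135716579, minus strand): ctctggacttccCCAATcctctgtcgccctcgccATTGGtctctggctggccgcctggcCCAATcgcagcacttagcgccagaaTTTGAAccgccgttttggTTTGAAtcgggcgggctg

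In these stretches Cdk1 has CHR letters at positions -71 and -15 from the start, Ccnb2 at -167, Kif11 at -19, Ube2c at -29, Cdc20 at -18 and Mki67 at -116 and -98. Over the 34 windows the 33 CHR matches had a median position of -5, with 26 of them from 100 bases upstream onward, and the 64 CCAAT matches had a median of -71. Of the 33 CHR matches 16 lay past the start, which the printed stretches do not reach. Ccnb2 has a further CHR match at 5, just past its start. The 23 genes with a CHR match had a median log2 difference between the genotypes of -0.59 and the 8 without one -0.63. For CCAAT the 23 genes with a match had -0.64 and the 8 without one -0.57. Cenpe and Bub1, with the lowest differences of the list, had no CHR match in their windows but 1 and 2 CCAAT matches. These splits were not tested.

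**Figure D1:**
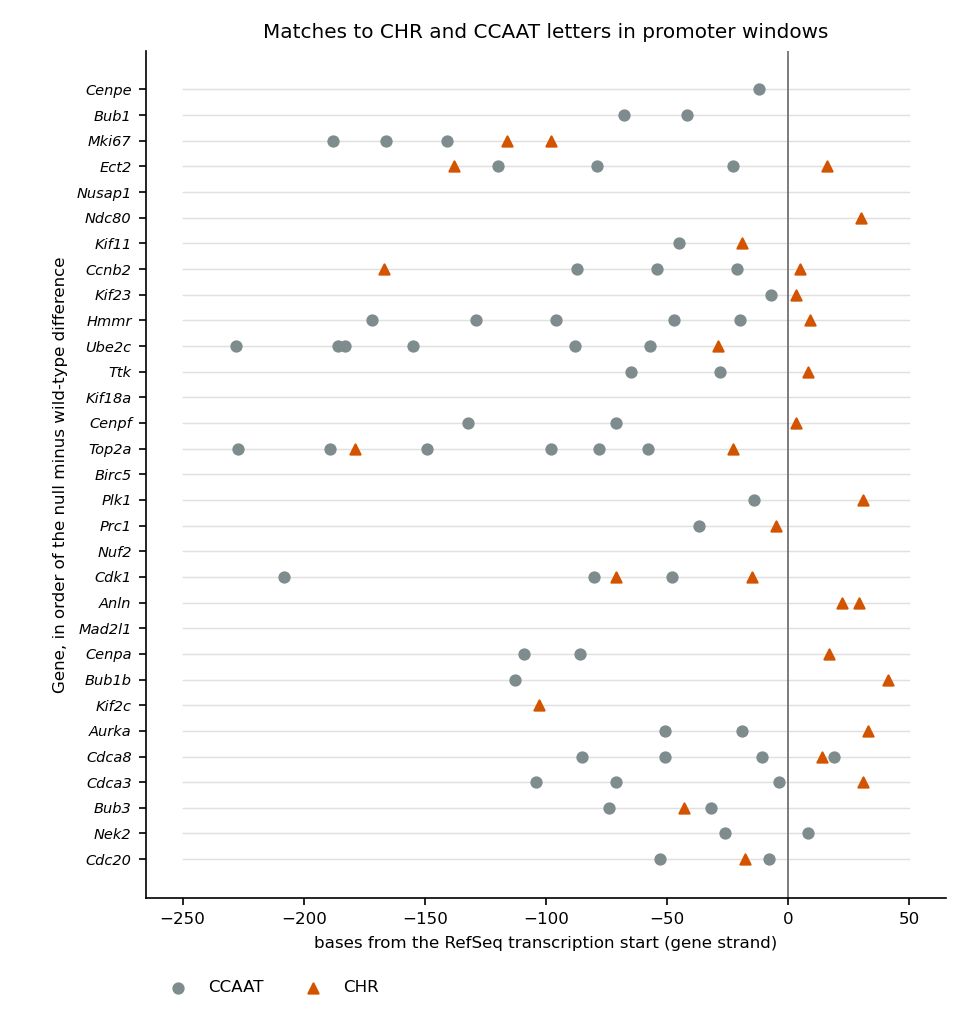
Each line is the RefSeq promoter window of a measured mitosis gene, with bases from the annotated start on the x axis and genes ordered by their null minus wild-type difference, the lowest at the top. Triangles are CHR matches and circles CCAAT matches on either strand, and for genes with more than 1 window the one with the lower start coordinate is drawn. The 29 CHR matches drawn have a median position of 3 and the 58 CCAAT matches drawn one of -71.

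Mitosis genes read lower on average in the TSP1 null cultures, but the arrays within each genotype differed by more than the genotypes did. Of the 37 genes 36 had a lower mean in the null group, where 44.9% of all genes tested did, and the median log2 difference was -0.54 (1.46-fold lower), where it was 0.02 over all genes. With limma, 0 of the 37 passed an adjusted p of 0.05, and 0 of the 22180 genes did (0% called). At an unadjusted p under 0.05 there were 4 members, all lower, where 10.6% of all genes were called in either direction and 4.27% as lower. An ordinary linear model gave 0 members at that level (8.58% of all genes). The count moved with the array left out. It was 26 without the second wild-type array (9.84% of all genes), 2 without the second null array (12.3%), 2 without the first wild-type array (12.3%) and 1 without the third wild-type array (8.22%). The median difference was -0.92 without the second wild-type array, -0.24 without the second null array, -0.31 without the first wild-type array and -0.34 without the third wild-type array.

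The spread within the genotypes had a simple form. In all 37 genes the second array was the lowest of its group in both groups, which held for 14.2% of all genes, and in 32 of the 37 both second arrays lay below each of the other 4 arrays, which held for 8.09% of all genes. The lowest of the 6 signals was on the second null array for 33 genes (13.8% of all genes) and on the second wild-type array for the other 4. The highest signal was on the first wild-type array for 20 genes and on the third wild-type array for 17. As a list the genes had a median distance from their own means of 0.02, -0.85 and 0.04 in null cultures and of 0.59, -0.45 and 0.63 in wild-type cultures. These counts were made after the values had been seen. The replicate numbers come from the sample titles, which do not say that equal numbers share an animal, a litter or a day.

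**Figure D2:**
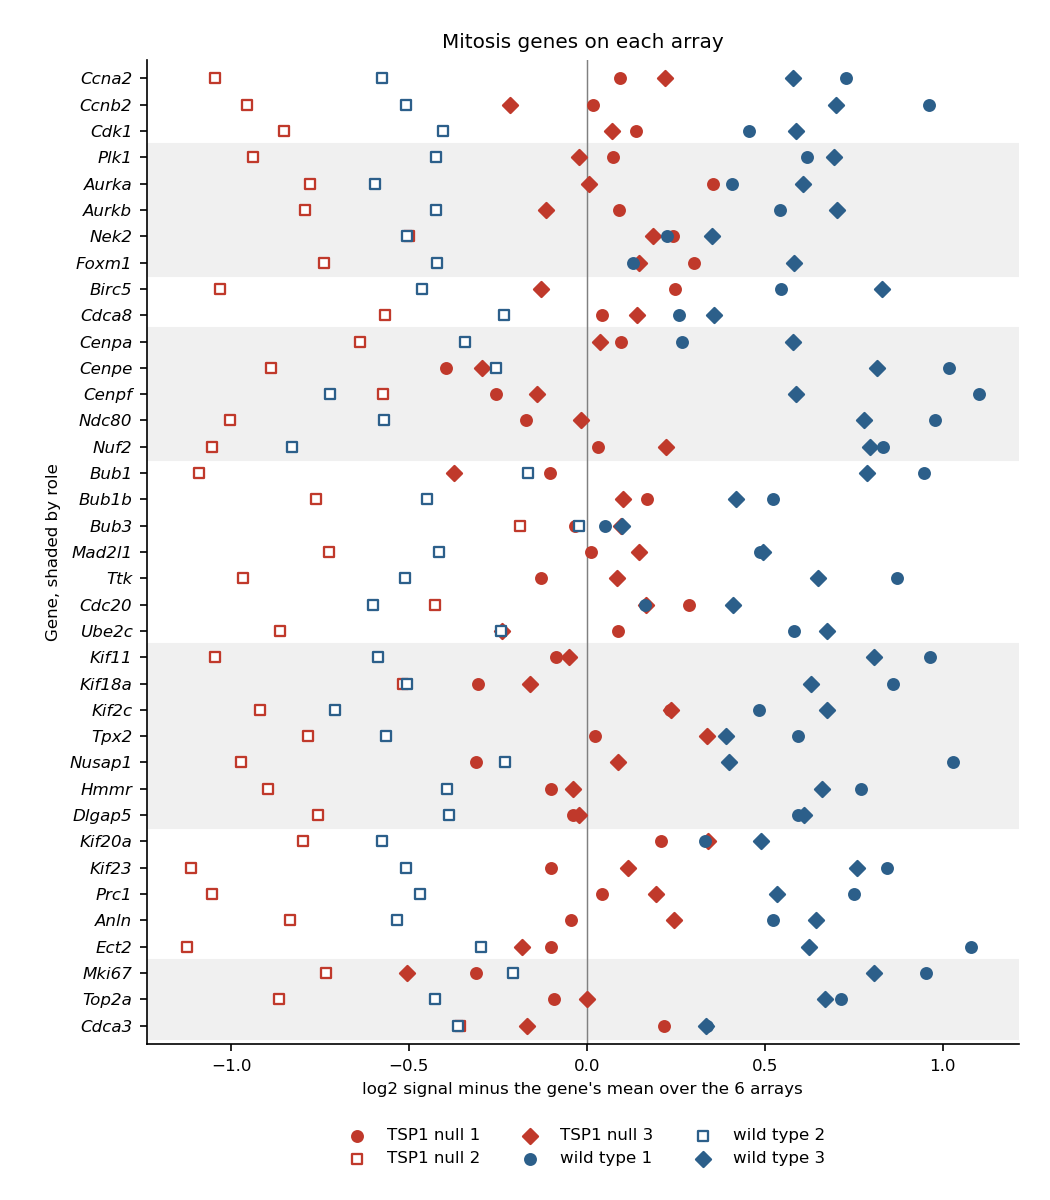
Log2 signal of each mitosis gene on each of the 6 arrays, as the distance from that gene's mean over the 6 arrays (x axis), with genes on the y axis shaded by role. Red marks are TSP1 null and blue marks wild type, and open squares are the second array of each group. In all 37 genes each open square is the leftmost mark of its colour, and in 32 both open squares lie left of every filled mark. The filled blue marks of wild-type arrays 1 and 3 hold the highest value of every gene.

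The members varied more from array to array than most genes. They were also brighter, with a median level of 7.73 in the null and 8.28 in the wild-type group, against 5.90 and 5.91 for all genes. The shares of all genes given here were not matched for signal. The median member ranged over 1.58 log2 units from its lowest to its highest array, a range that 3.27% of all genes reached, and its within-group SD was 0.57, which 3.09% of all genes reached. A single component held 92.3% of the variance of the 37 genes over the 6 arrays, against 40.4% for all genes, and the difference between the groups accounted for 23.6% of the sum of squares in the median member. Away from the second arrays the genotypes were more often apart. Both remaining null arrays lay below both remaining wild-type arrays in 32 of the 37 genes (18% of all genes), with a median difference of -0.63, and the second null array lay below the second wild-type array in 33 (48.5% of all genes), with a median of -0.37. In the fit without both second arrays, which was added after the data were seen, 25 members had an unadjusted p under 0.05, where 11.6% of all genes did. None of the 37 passed the adjusted threshold there, and their smallest adjusted p was 0.127.

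**Figure D3:**
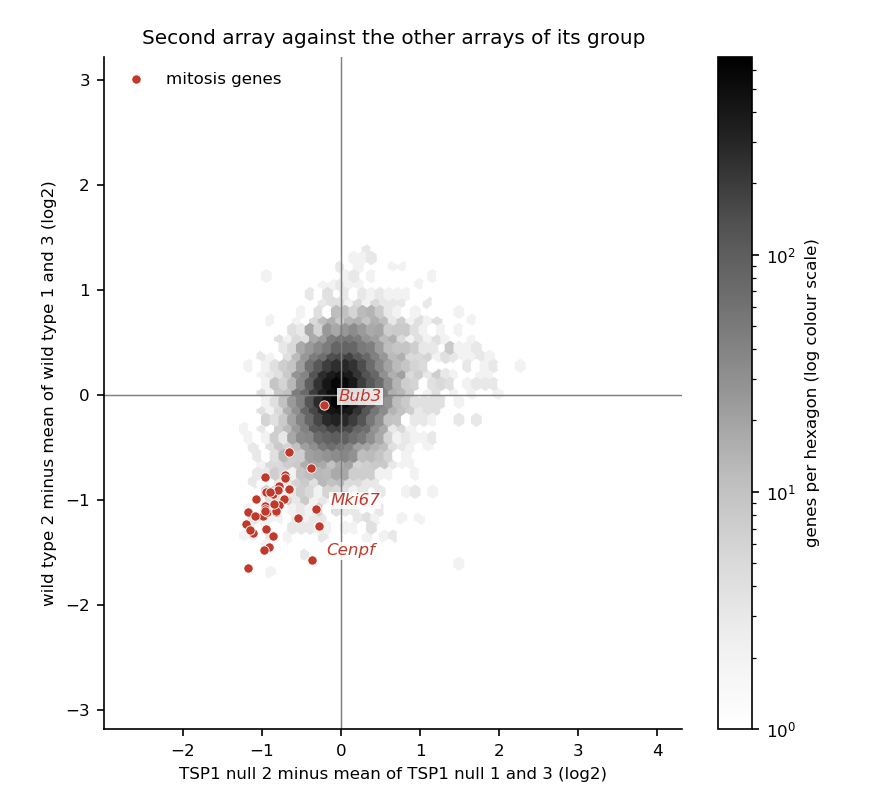
Each point is a gene, placed by how far the second TSP1 null array lay from the mean of the other null arrays (x axis, log2) and the second wild-type array from the mean of the other wild-type arrays (y axis, log2). Grey hexagons count all 22180 genes on a log colour scale and red points are the 37 mitosis genes. All red points lie to the lower left of 0, with medians of -0.86 on the x axis and -1.09 on the y axis, and Bub3 lies nearest the centre.

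Cyclins and the kinase they switch on come first in the division. Cdk1, the kinase that drives entry into mitosis, had log2 signals of 8.21, 7.22 and 8.14 on the null arrays and 8.53, 7.67 and 8.66 on the wild-type arrays. The second array of each group was about 1 unit lower than the others, and the groups overlapped with a difference of -0.43 (SE 0.34, 95% interval -1.21 to 0.36). Ccnb2, a B-type cyclin that activates Cdk1, had 9.27, 8.29 and 9.03 on the null arrays against 10.21, 8.74 and 9.95. Its difference of -0.77 (SE 0.40) was the largest of the 3 measured genes of this role, and Ccna2, the cyclin of S phase and G2, had -0.49 (SE 0.43).

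Foxm1, the transcription factor that activates many genes of this list, differed less than most of them. Its signals were 7.75, 6.71 and 7.60 on the null arrays and 7.58, 7.03 and 8.03 on the wild-type arrays, and 2 null arrays lay above the first wild-type array. The difference was -0.19 (SE 0.33, 95% interval -0.96 to 0.57), and it was 0.13 without the second null array. Aurkb, the kinase of the chromosomal passenger complex, had 7.62, 6.74 and 7.41 against 8.07, 7.10 and 8.23, a difference of -0.55 (SE 0.33). The null arrays other than the second stood between the second wild-type array and the other wild-type arrays. Among the other mitotic kinases, Plk1, which acts at centrosomes, kinetochores and the midzone, had -0.59 (SE 0.36), Aurka, a centrosome and spindle kinase, -0.28 (SE 0.38), and Nek2, which separates the centrosomes, -0.05 (SE 0.28).

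The passenger proteins Birc5 (survivin) and Cdca8 (borealin), which bring Aurkb to centromeres, had differences of -0.61 (SE 0.41) and -0.26 (SE 0.23). Birc5 measured 6.38, 5.10 and 6.00 on the null arrays and 6.68, 5.67 and 6.96 on the wild-type arrays. Only the second null array lay clear below all wild-type arrays.

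Kinetochore genes held the lowest difference of the list. Cenpe, a kinesin that carries chromosomes to the spindle equator, had signals of 7.83, 7.34 and 7.93 on the null arrays and 9.24, 7.97 and 9.04 on the wild-type arrays. The groups did not overlap, although the third null and the second wild-type array were only 0.039 apart. The difference was -1.05 (SE 0.33, 2.07-fold lower), with a limma p of 0.0136 and an adjusted p of 0.369. Ndc80 and Nuf2, partners in the complex that grips microtubules, had -0.79 (SE 0.43) and -0.53 (SE 0.50), and Cenpa, the histone variant that marks centromeres, -0.34 (SE 0.28). Cenpf, a large kinetochore protein, had -0.64 (SE 0.42) and was one of the 4 genes whose lowest signal was on the second wild-type array, with 7.08, 6.77 and 7.20 on the null arrays against 8.44, 6.62 and 7.92.

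Among the spindle checkpoint genes Bub1 had the lowest difference. This kinase, which recruits checkpoint proteins to kinetochores, had signals of 6.92, 5.93 and 6.65 on the null arrays and 7.97, 6.86 and 7.81 on the wild-type arrays. The first null array overlapped the second wild-type array by 0.062, and the difference was -1.05 (SE 0.34, 2.06-fold lower, adjusted p = 0.384 with limma). Ttk, the kinase at the head of the checkpoint, had -0.67 (SE 0.40), Mad2l1, which holds back Cdc20, -0.38 (SE 0.31), and Bub1b, the BubR1 protein, -0.33 (SE 0.33).

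Bub3, which the checkpoint shares with other nuclear processes, was the flattest gene of the list. Its signals ran from 10.68 to 10.97 over the 6 arrays, a range of 0.287, while that of each other member was at least 0.698. Its difference was -0.08 (SE 0.12, 95% interval -0.35 to 0.19). Cdc20, which activates the anaphase-promoting complex (APC/C), was the 1 member with a higher mean in the null group, at 8.23, 7.51 and 8.11 against 8.10, 7.34 and 8.35. That difference was 0.02 (SE 0.29, 95% interval -0.65 to 0.69), and its sign changed with the array left out. Ube2c, the ubiquitin-conjugating enzyme of the APC/C, had -0.68 (SE 0.31), so 2 genes that serve the same enzyme complex gave different values. The difference between them was not tested.

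The 7 spindle genes had a median difference of -0.65. Nusap1, a microtubule-bundling protein, had signals of 7.52, 6.86 and 7.92 on the null arrays and 8.86, 7.61 and 8.24 on the wild-type arrays, a difference of -0.80 (SE 0.36). The third null array lay above the second wild-type array, so the groups overlapped. Kif11, the motor that pushes the spindle poles apart, had -0.79 (SE 0.44), Hmmr, a spindle assembly factor, -0.69 (SE 0.35), Kif18a, which damps chromosome movement, -0.65 (SE 0.33), and Dlgap5, which stabilises kinetochore fibres, -0.54 (SE 0.31). Kif2c, a microtubule depolymerase, and Tpx2, which activates Aurka, had smaller differences of -0.30 (SE 0.43) and -0.28 (SE 0.37), and both turned positive, at 0.086 and 0.040, without the second null array.

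Cytokinesis genes ranged from Ect2 to Kif20a. Ect2, the exchange factor that switches on RhoA at the division plane, had 9.35, 8.33 and 9.27 on the null arrays and 10.53, 9.15 and 10.08 on the wild-type arrays. It differed by -0.94 (SE 0.39, 1.92-fold lower, adjusted p = 0.463 with limma), and the second wild-type array fell among the null values. Kif23, a motor of the central spindle, had -0.73 (SE 0.43), Prc1, which bundles its microtubules, -0.54 (SE 0.41), Anln, the actin-binding anillin, -0.42 (SE 0.37), and Kif20a, another central spindle motor, -0.16 (SE 0.37).

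Mki67, the proliferation marker that coats mitotic chromosomes, had the smallest p of the list. Its signals were 9.79, 9.37 and 9.60 on the null arrays and 11.06, 9.90 and 10.91 on the wild-type arrays. Every null array lay below every wild-type array, by 0.105 at the closest pair, which among the 37 genes was also true of Cenpe and of no other (5.75% of all genes had all null arrays lower). The difference was -1.03 (SE 0.29, 2.05-fold lower) with a limma p of 0.00855 and an adjusted p of 0.338.

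Top2a, the topoisomerase that untangles sister chromatids, had 8.48, 7.71 and 8.57 on the null arrays and 9.28, 8.14 and 9.24 on the wild-type arrays. The second wild-type array lay below null arrays 1 and 3, and the difference was -0.64 (SE 0.35). Cdca3, an adaptor of a ubiquitin ligase acting at mitotic entry, had -0.21 (SE 0.23). In all, 17 of the 37 genes were at least 1.5-fold lower in the null group (2.78% of all genes) and 33 had a 95% interval that included 0.

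**Figure D4:**
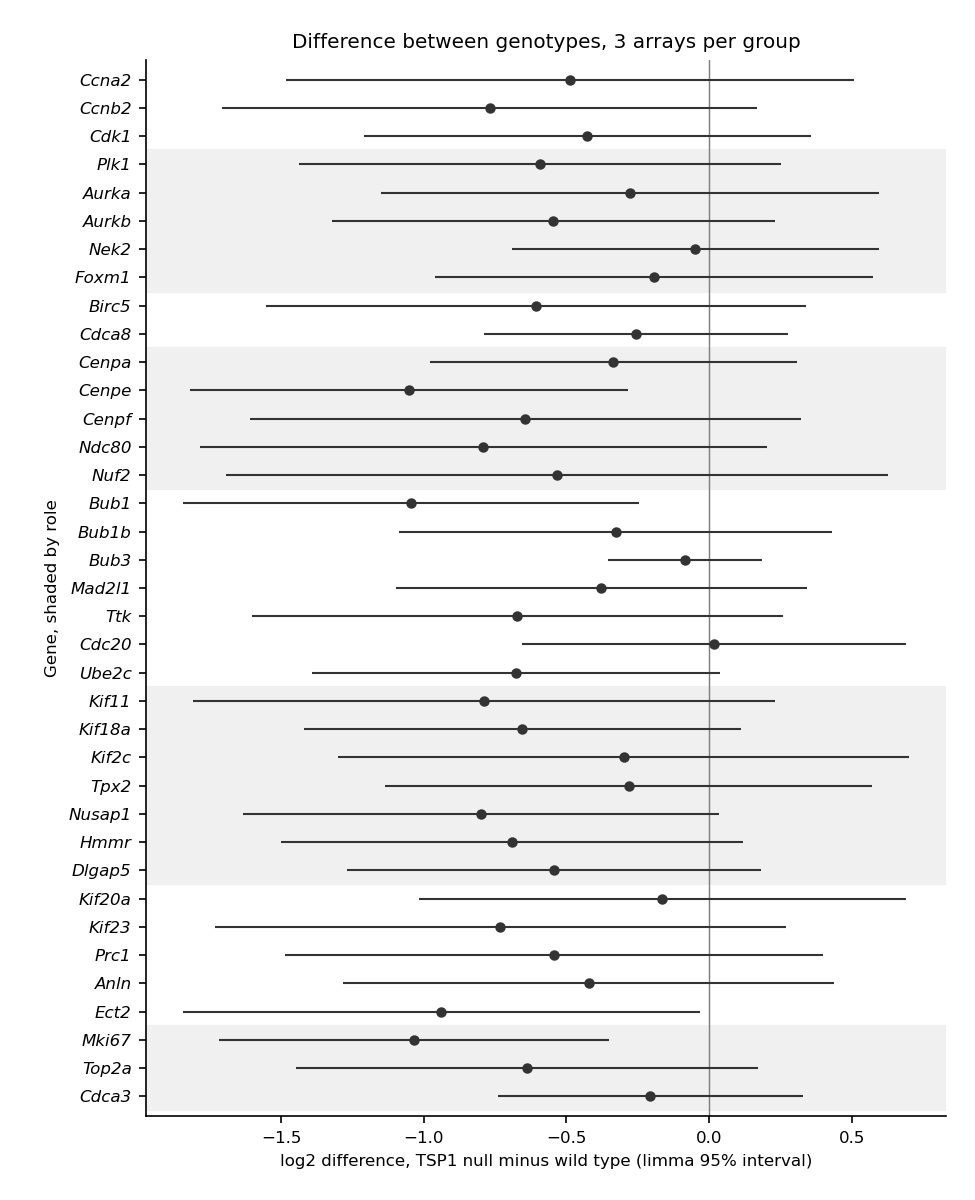
Log2 difference of each mitosis gene, TSP1 null minus wild type, with the 95% interval from limma over 3 arrays per group (x axis), genes on the y axis shaded by role. The points run from -1.05 for Cenpe to 0.02 for Cdc20, and the intervals of Cenpe, Bub1, Ect2 and Mki67 are the 4 that leave out 0.

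Further genes of G2 and mitosis that are not on the list had a lower median too. Of 68 such genes 63 were measured, 55 of them with a lower mean in the null group (44.9% of all genes), at a median difference of -0.32. None passed the adjusted threshold (0 of 63). At an unadjusted p under 0.05 there were 2 lower and 1 higher, where 4.27% of all genes were called as lower and 6.28% as higher. In 52 of the 63 the second array was the lowest of its group in both groups (14.2% of all genes). Kif20b, a kinesin of cytokinesis, had 6.44, 6.20 and 6.75 on the null arrays and 8.37, 6.94 and 8.04 on the wild-type arrays, a difference of -1.32 (SE 0.35) with no overlap. Sapcd2 had -0.41 (SE 0.13), while Psrc1, a microtubule regulator, was higher at 0.39 (SE 0.13) with every null array above every wild-type array (10.1% of all genes), and Cit, the citron kinase of cytokinesis, had 0.22 (SE 0.31).

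Genes of the neighbouring phases of the cell cycle had medians nearer 0. The 31 measured S phase genes of 33 had a median of -0.19, 26 of them lower (44.9% of all genes). In 25 of them the second array was lowest in both groups (14.2% of all genes). None passed the adjusted threshold. Rrm2, a subunit of ribonucleotide reductase, at -0.67 (SE 0.22) and Pcna, the polymerase clamp, at -0.47 (SE 0.16) were the 2 with an unadjusted p under 0.05 (10.6% of all genes). Fen1, a flap endonuclease, had 0.21 (SE 0.13) and Chaf1a, a histone chaperone subunit, 0.16 (SE 0.16). The 25 measured G1 cyclins and E2F and MuvB regulators had a median of -0.08, 17 of them lower (44.9% of all genes). In 9 of them the second array was lowest in both groups (14.2% of all genes). At an unadjusted p under 0.05 there were 3, all lower, where 4.27% of all genes were called as lower. None of the 25 passed the adjusted threshold. Skp2, of the ubiquitin ligase that removes p27, had -0.49 (SE 0.17) and Lin37, a MuvB subunit, -0.26 (SE 0.11), against 0.24 (SE 0.14) for Ccnd2 and 0.11 (SE 0.14) for Cdk4.

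Cell cycle inhibitors and p53 targets had a median above 0. Of 22 such genes 20 were measured, 13 with a higher mean in the null group, at a median of 0.19 (44.9% of all genes were lower). At an unadjusted p under 0.05 there were 6 higher and 1 lower, where 6.28% of all genes were called as higher and 4.27% as lower. None passed the adjusted threshold. Sesn2, a stress-induced sestrin, had 0.81 (SE 0.13) and Btg1, an antiproliferative factor, 0.49 (SE 0.11), while Sesn1 had -0.70 (SE 0.21) and Mdm2, the ligase that degrades p53, -0.16 (SE 0.15). The 16 subunits and partners of the APC/C had a median of 0.14, 12 higher and 4 lower, with 0 at an unadjusted p under 0.05 (10.6% of all genes). Cdc27 (-0.24, SE 0.11), Anapc10 (-0.12, SE 0.12), Anapc5 (0.30, SE 0.14) and Anapc7 (0.28, SE 0.13) were the extremes by p.

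Macrophage markers also moved between the arrays, in another order within each group. All 20 were lower in the null group, where 44.9% of all genes were, at a median difference of -1.46. Of these, 14 had an unadjusted p under 0.05, where 4.27% of all genes were called as lower, and 0 passed the adjusted threshold. Their mean log2 signal ran from 7.36 to 9.83 on the null arrays and from 9.68 to 10.48 on the wild-type arrays. Their median distance from their own means was -0.39, 0.36 and -2.27 in null cultures and 0.19, 0.92 and 1.09 in wild-type cultures. Thus the third null array was lowest for macrophage markers but level with the first for mitosis genes, and the second null array was the highest of its group for the markers and the lowest for mitosis genes. Between the groups the order was shared with most mitosis genes. In all 20 markers null arrays 1 and 3 lay below wild-type arrays 1 and 3 (18% of all genes). The second null array lay below the second wild-type array in all 20 too (48.5% of all genes). Cd68, Csf1r and Adgre1, which define macrophages, were bright on most arrays (Cd68 at 9.66 to 12.99). Their part in the lower mitosis signals was not tested.

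Markers of other cells spanned smaller ranges than the macrophage markers. The counts of lower genes given for them stand beside 44.9% of all genes. Fibroblast markers had a mean log2 signal of 9.84 to 10.32 on the null arrays and 9.39 to 10.61 on the wild-type arrays, 6 of 14 lower, and peaked on the second array of the null group and on the first of the wild-type group. Contractile markers ran from 9.99 to 10.36 and from 9.90 to 10.08, 5 of 11 lower, with Acta2 (smooth muscle actin) at 13.85 to 14.01 and Cnn1 (calponin) at 11.64 to 12.22 over the 6 arrays. Basal epithelial markers had 6.37 to 6.70 and 6.25 to 6.44 (3 of 9 lower), and luminal markers 5.89 to 6.37 and 5.65 to 5.92 (2 of 10 lower). Krt14, a basal keratin that helps define myoepithelial cells, had 5.78 to 6.35 in the null and 4.93 to 5.52 in the wild-type arrays, where the median probe set of an array read 5.25 to 5.32. Its null arrays all lay above its wild-type arrays (10.1% of all genes), with a difference of 0.89 (SE 0.20, adjusted p = 0.290 with limma). Krt5 shares its probe set with another keratin and was not analysed here. Epcam, a marker of epithelial cells, had means of 4.95 in the null and 5.10 in the wild-type group, below that median, while Col1a1, a fibrillar collagen of fibroblasts, had 13.31 and 12.76 and Pdgfra, a receptor of fibroblasts, 11.82 and 11.58. Krt8, a luminal keratin, had 7.23 to 7.77 in the null and 6.97 to 7.15 in the wild-type arrays, above the median probe set. The contractile genes were thus bright, but fibroblast and macrophage markers were bright too. Contractile markers had median levels of 10.38 in the null and 10.43 in the wild-type group. Fibroblast markers had 11.43 and 11.19, and macrophage markers 8.85 and 10.35, in the same order. Whether these levels single out the labelled cell type was not tested. The epithelial markers gave no single answer, with Epcam below the median probe set and Krt8 above it. Krt14 lay above it on the null arrays and the third wild-type array. On the first and second wild-type arrays Krt14 lay below it, at 4.93 and 5.23 against medians of 5.32 and 5.29. Acinar (4.82 to 5.04), endothelial (5.02 to 5.70) and lymphocyte markers (4.61 to 4.79) were dim over the 6 arrays, with 5 of 9, 7 of 10 and 6 of 9 lower. The part of these cells in the mitosis signals was not tested. The targeted gene, Thbs1, was lower on all null arrays (12.73 to 13.03 against 13.51 to 13.75) yet far from dark, and no source used here places its probes relative to the disrupted part, so it is a weak check of the labels.

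**Figure D5:**
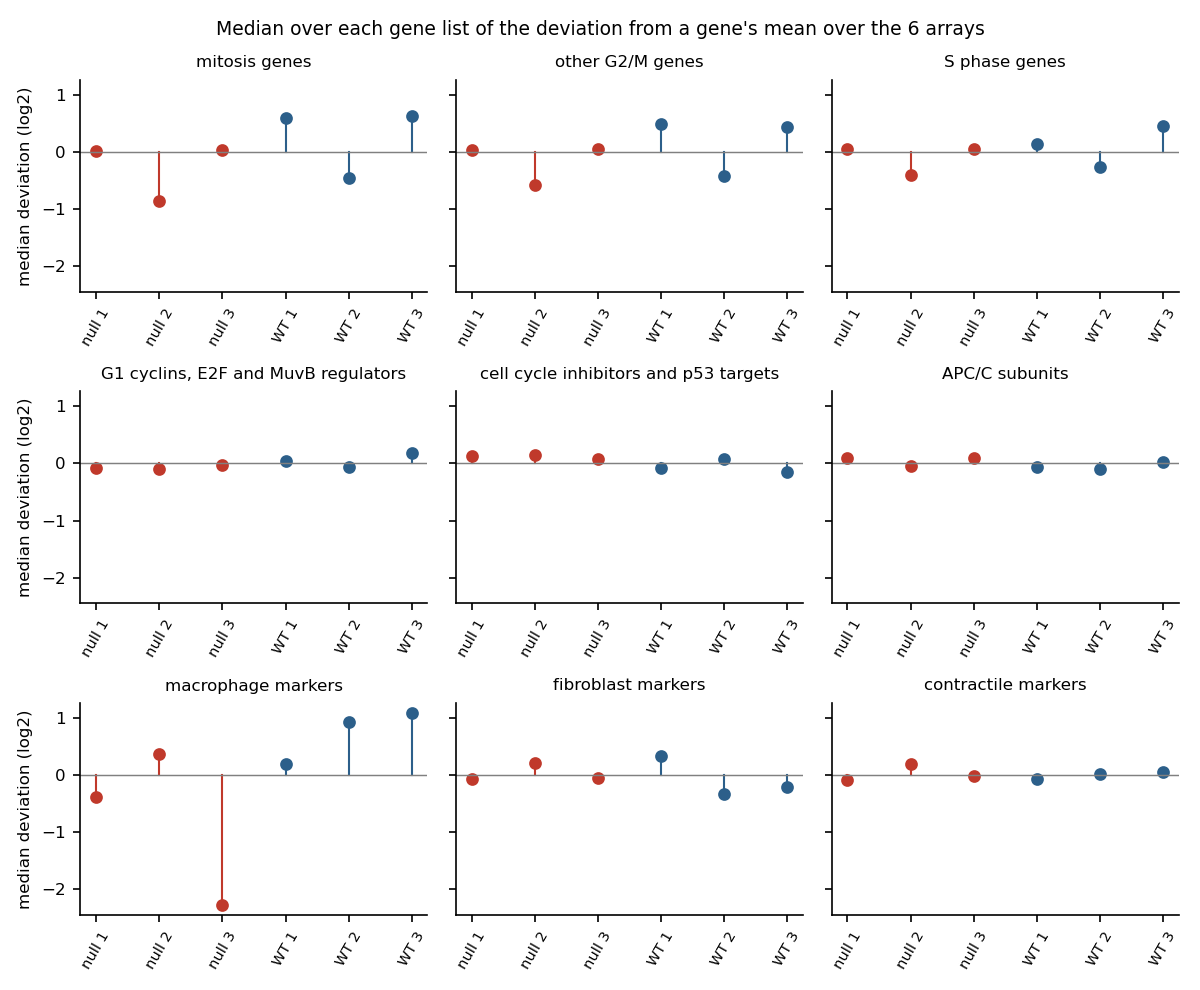
For each gene list the plot gives the median deviation of its genes from their own mean over the 6 arrays (y axis, log2) on each array (x axis), red for TSP1 null and blue for wild type. The mitosis genes, the other G2/M genes and the S phase genes dip on the second array of both groups, to -0.85 and -0.45, -0.58 and -0.42, and -0.40 and -0.26, while macrophage markers are lowest on the third null array at -2.27.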

How the data were processed

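The deposited table holds log2 signals per array for 41345 probe sets, normalized by the authors. The submitters' processing notes name Partek and RMA, with no version, setting or build given in the sources used here. That the scale is log2 was inferred from its range (1.83 to 14.2). Precision is limited by the number of arrays, and RMA's background floor compresses dim genes.

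Probe sets with 1 symbol in the platform annotation (23521, with 1814 holding several and 16010 none) were reduced to the brightest per gene, 22180 in all. Groups were compared with limma 3.58.1 (R 4.3.3), null minus wild type, two-sided, without covariates, adjusted by Benjamini-Hochberg over all genes at 0.05. SE and intervals are limma's. The fit was tested on simulated data. Figures used Python 3.11.15 and matplotlib 3.10.9. No array repeated another (correlations 0.978 to 0.988).

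The members and lists were chosen with earlier results of these data known. Values on every array are given for Mki67, Top2a, Cdk1, Foxm1 and the gene of smallest p per role, and other cell cycle lists by the 2 genes of smallest p in each direction. The array values of Cdc20, Bub3, Cenpf and Kif20b were singled out after being seen. Promoters came from RefSeq. Alternatives changed the normalization, filter, probe set rule, variance model, pairing and arrays.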

Additional observations from a re-analysis of the deposited data

How the results depend on the processing

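No member passed the adjusted threshold in any of the 16 alternatives (0 of 592 member fits, smallest adjusted p 0.127), and 30 of the 37 genes kept the sign of their difference in all of them. Over the fits that leave out 1 array, the median difference ran from -0.92 to -0.24, the members with a lower mean from 30 to 37, the members at an unadjusted p under 0.05 from 1 to 26, and the genes past the adjusted threshold from 0 to 34. The members at an unadjusted p under 0.05 numbered 0 with the ordinary linear model and 25 without both second arrays, an alternative added after the data were seen. Past the adjusted threshold there were 2 probe sets when every deposited one was tested and 2 genes without both second arrays.

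The sign changed under an alternative for 7 of the 37 members and for Cit, Cnn1 and Anapc10 among the other genes named. Cdc20 was -0.0142 with array weights and -0.0610 without both second arrays, Cnn1 -0.00498 and -0.17, and Anapc10 0.00126 without both second arrays. With 1 array left out the ranges were -0.28 to 0.24 for Cdc20, -0.31 to 0.19 for Nek2, -0.45 to 0.13 for Foxm1, -0.49 to 0.19 for Kif20a, -0.65 to 0.0426 for Aurka, -0.73 to 0.0858 for Kif2c, -0.63 to 0.0401 for Tpx2, -0.0137 to 0.58 for Cit and -0.11 to 0.18 for Cnn1. The cause was not tested.

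Replicate numbers are shared by title only. The main fit did not pair the arrays, because the numbers are not stated to mark a shared litter, day or animal. Over all genes the deviations of same-numbered arrays from their group means correlated at -0.14, 0.18 and -0.16. The second null array correlated best with the second wild-type array, the first null array with the third and the third with the first. A fit with the replicate block gave 26 members at an unadjusted p under 0.05, where 9.99% of all genes were, and 0 past the adjusted threshold. With 3 arrays a group, the SE of a member's difference had a median of 0.35, so a difference of the median size is under 2 SEs.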
